A study of Mus musculus with 19 samples.

Results

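The question was whether an active form of Smoothened changes gene expression to the same extent in medial and in dorsal embryonic cortex. It was addressed with the 18 of 19 libraries whose title number is present in both regions, which give 9 within-number differences, medial minus dorsal, of log2(TPM + 1). TPM is a transcript level scaled by gene length and to a fixed total per library, so the sequencing depth is unknown and no counting error can be given. The libraries came from mouse cortex at E14.5, counted in days of embryonic development. The controls were wildtype, with 5 dorsal and 5 medial libraries (numbers 2 to 6). The mutants carried GFAP::Cre; SmoM2, with 4 dorsal and 4 medial libraries (numbers 1 to 4). A dorsal library of control number 1 has no medial partner and entered only the filter on low values and the alternatives that say so. SmoM2 is a Smoothened protein that signals without ligand, and it is made where the Cre recombinase driven by the GFAP promoter has acted, so a library can hold recombined and unrecombined cells. The tissue label says dorsal or medial cortex, whereas the extraction protocol speaks of medial or lateral pieces. Nothing in the labels ties each number to an embryo of its own, so a p-value here refers to library-to-library spread, part of which may be technical.

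In the Hedgehog pathway, ligand binding to Patched frees Smoothened, a membrane protein, to signal, and the Gli transcription factors then change the expression of target genes. In the embryonic cortex the medial wall lies next to the cortical hem, a source of Wnt and BMP signals that patterns the future hippocampus, and the choroid plexus borders the hem. Dorsal and medial cortex are therefore unlike before any mutation, in patterning genes and in the balance of progenitors and neurons. A genotype by region interaction asks whether that regional difference is altered in the mutants. Its estimate, the mean regional difference of the mutants minus that of the controls, equals the mutant effect in medial cortex minus the mutant effect in dorsal cortex.

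The libraries were alike within groups, with Pearson's r across the 13520 tested genes from 0.975 to 0.993 between replicates and 17357 to 18670 genes above 0 per library. Control numbers 2, 3 and 4 expressed Xist and lacked Ddx3y, the pattern of females, whereas control numbers 5 and 6 and all 4 mutant numbers showed the male pattern. Gli1, a direct Hedgehog target, lay at 24.3 to 48.1 TPM in the 8 mutant libraries and at 0.2 to 1.08 TPM in the 10 control libraries, so every library matched its genotype label. Levels of hem and choroid plexus genes differed between medial libraries of a group. The summed level of 14 hem genes ran from 64.6 to 255 TPM among the control medial libraries, highest in number 2. Among the mutant medial libraries it ran from 43.7 to 219 TPM, highest in number 1, with a median of 47.2 TPM. The summed level of 14 choroid plexus genes ran from 9.68 to 1013 TPM in control medial cortex, highest in number 4. In mutant medial cortex it ran from 7.49 to 177 TPM, highest in number 3. The part that these levels, or embryo sex, have in the results below was not tested beyond the values given beside them.

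The regional profile of the cortex was largely kept in the mutants. In controls, 6325 of 13520 genes (46.8%) differed between regions at an adjusted p under 0.05, with 3526 higher medially and 2799 higher dorsally. In mutants 4949 genes (36.6%) did so, with 2333 higher medially and 2616 higher dorsally. The 2 regional comparisons share no library, but both come from 1 fit with 1 residual variance per gene. Their calls are therefore not independent, since a gene of low spread passes more easily in both. The 2 comparisons had 4178 called genes in common, of which 4167 pointed the same way. These were 65.9% of the genes called in controls and 84.2% of those called in mutants. Across all tested genes, which are not independent replicates, the regional differences of controls and mutants correlated with r = 0.853 and rho = 0.825. Fewer genes were called at 2-fold or more in mutants, from 4 numbers, than in controls, from 5. There were 291 in controls (165 higher medially, 126 higher dorsally) and 153 in mutants (53 higher medially, 100 higher dorsally). In single numbers, without regard to calls, 519, 644, 277, 201 and 310 genes reached 2-fold in control numbers 2 to 6. In mutant numbers 1 to 4 there were 394, 325, 209 and 215, within the control range.

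One value per number gives how far apart the regions lay as a whole, the SD over all tested genes of the regional difference. It was 0.427, 0.472, 0.360, 0.324 and 0.347 in control numbers 2 to 6. It was 0.390, 0.376, 0.314 and 0.330 in mutant numbers 1 to 4. The ranges overlapped, and the mutant mean lay 0.0336 below the control mean (two-sided exact permutation test over the 9 numbers, p = 0.381, where the smallest p this design allows is 0.0159). The overall distance between regions thus showed no difference beyond the spread between numbers.

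**Figure D1:**
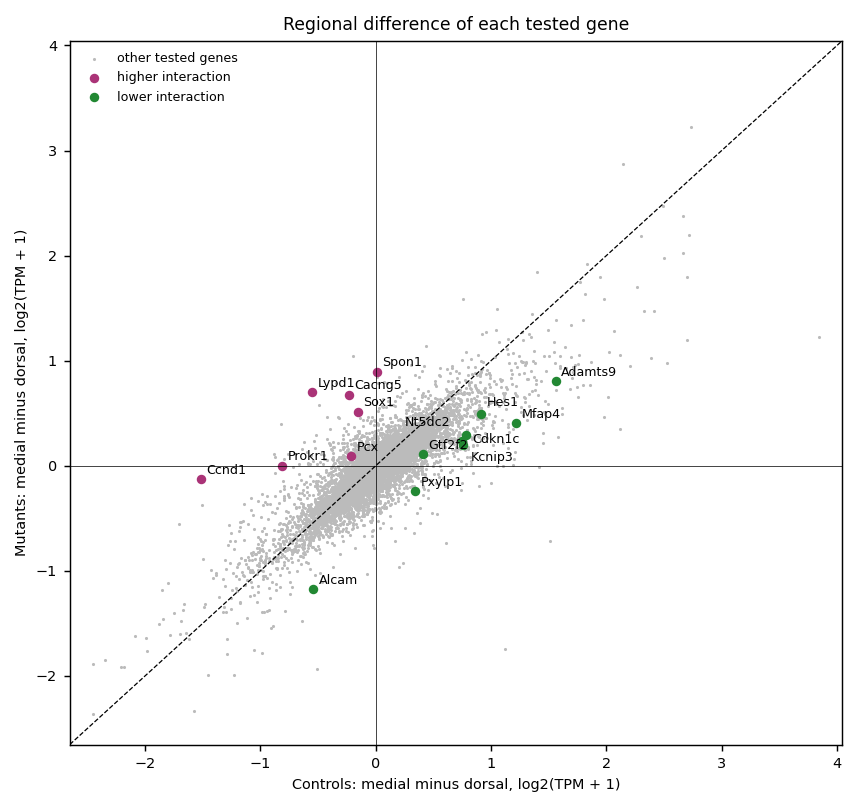
Regional difference (medial minus dorsal, log2(TPM + 1)) of each of the 13520 tested genes, with the mean of 5 control numbers on the horizontal axis and the mean of 4 mutant numbers on the vertical axis; the dashed line marks equal differences. Most genes lie along the line, and the 16 genes past the interaction threshold are labelled, 7 above it and 9 below it.

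Against this shared pattern, 16 genes (0.118% of those tested) passed the test of the interaction, 7 with a higher (0.0518%) and 9 with a lower (0.0666%) mutant effect in medial than in dorsal cortex. The adjusted p ran from 0.0129 to 0.0436, and the next gene, Pou3f4, a neural transcription factor named after its values were seen, had an adjusted p of 0.0530 with an interaction of 0.62. In all 16 genes the 4 mutant differences lay beyond all 5 control differences, as they did in 466 genes (3.45%) of all tested. At an unadjusted p under 0.05, 1201 genes (8.88%) passed. The half-width of the 95% confidence interval of an interaction had a median of 0.18 and quartiles of 0.13 and 0.29 on the log2 scale. These intervals are not adjusted for the number of genes, so a call needed a larger interaction than they show. The smallest called interaction was 0.30 in size. The calls depended on the libraries: leaving out 1 number at a time gave 0 to 13 genes, with 0 without control number 2, 1 without mutant number 3 and 3 without mutant number 4. Without mutant number 2 or control number 3 there were 7 genes, and without control number 4 there were 5. With sex as a term the fit called 0 genes, with 724 at an unadjusted p under 0.05; since all mutants were male, that term rests on the controls alone. The estimates of all 16 genes kept their sign in every alternative in which the gene was tested.

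In 10 of the 16 genes the mutant effect had the same sign in both regions and was larger medially. The estimates had opposite signs in 6 genes. Of these, only Prokr1 had effects that passed their test in both regions, and each of the others had an effect in 1 region that did not pass. Read as regional differences, 8 genes had a narrower difference in mutants, 6 had one of the opposite sign and 2 had a wider one. Among those of opposite sign, only Lypd1, Cacng5 and Pxylp1 had both regional differences past the threshold. The mutant difference of Prokr1 was 0.00, and neither that of Pcx nor the control difference of Sox1 passed. The mutant effect passed its own test in both regions for 11 genes, only medially for 3 and only dorsally for 2, where 35.3% of all tested genes passed dorsally and 39.2% medially. The control regional difference passed for 14 and the mutant one for 13, where 46.8% and 36.6% of all tested genes passed. The 16 genes were selected on the difference of these 2 estimates, which is also that of the 2 mutant effects. Such counts are therefore partly set by the selection.

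**Figure D2:**
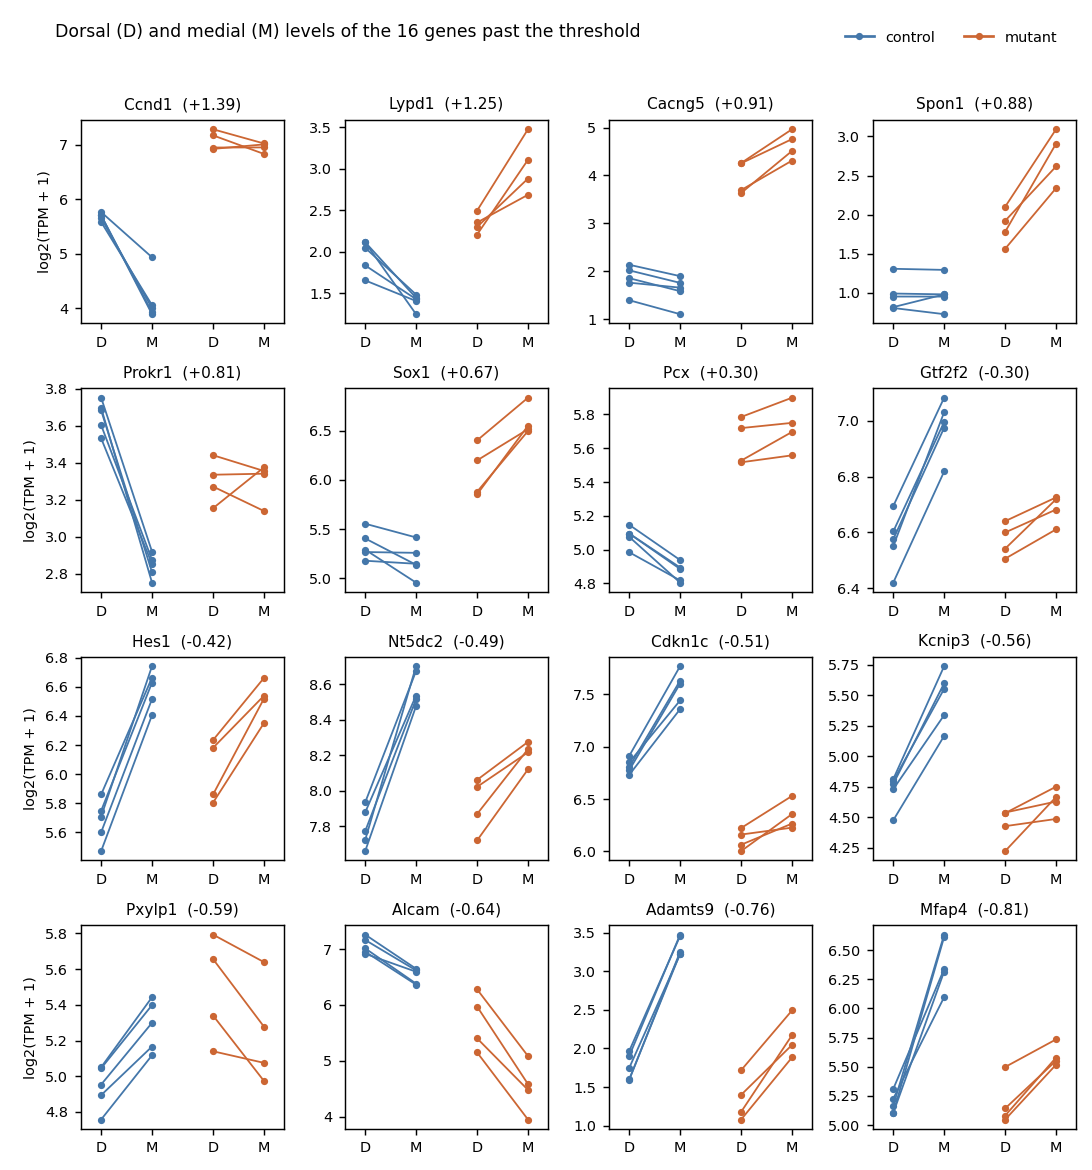
Level of the 16 genes past the interaction threshold in each library, as log2(TPM + 1), with a line joining the dorsal (D) and medial (M) library of a number and the interaction in parentheses; the vertical axis differs between panels and does not start at 0. Control lines (5) fall for Ccnd1 and Prokr1 while mutant lines (4) are nearly flat, and control lines rise more steeply than mutant lines for Cdkn1c, Hes1, Nt5dc2 and Mfap4.

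Among genes of the cell cycle entry, the D-type cyclin Ccnd1, which activates Cdk4 and Cdk6 and is a Hedgehog target, had the largest interaction of the 16 genes. The protein-coding gene spans positions 144929931 to 144939925 of chromosome 7 on GRCm38, the assembly also called mm10, and the positions below are on the same build. It stood at 51.0, 51.2, 46.9, 53.3 and 49.3 TPM in dorsal and at 14.2, 13.9, 15.7, 29.6 and 15.0 TPM in medial cortex of control numbers 2 to 6. In mutant numbers 1 to 4 it stood at 143, 155, 120 and 122 TPM dorsally and at 113, 129, 127 and 123 TPM medially. Medial control cortex thus held less Ccnd1 than dorsal control cortex in all 5 numbers, and the mutants, all above all controls in both regions, had similar levels in both. The regional difference was -1.52 in controls and -0.13 in mutants (interaction 1.39 ± 0.192 SE, adjusted p = 0.0405). The mutant effect was 1.40 dorsally and 2.79 medially on the log2 scale. Control number 5 had the smallest difference of the controls, -0.83, against -1.52 to -1.81 in the other 4.

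Cdkn1c (chromosome 7, 143458339 to 143461050) encodes p57, an inhibitor of cyclin-dependent kinases that accompanies cell cycle exit. In control numbers 2 to 6 it stood at 119, 111, 114, 108 and 105 TPM dorsally and at 217, 197, 173, 193 and 163 TPM medially. In mutant numbers 1 to 4 it stood at 63.2, 65.9, 70.6 and 73.7 TPM dorsally and at 80.9, 75.9, 73.9 and 91.4 TPM medially. Every mutant library lay below every control library of its region, and the medial excess of the controls was narrower in the mutants. The regional differences were 0.74 and 0.23, the interaction -0.51 ± 0.0735 SE with an adjusted p of 0.0247, and the mutant effect -0.70 dorsally and -1.21 medially. The other kinases and cyclins of this step did not pass. Cdk6 resembled Ccnd1 in direction, with 20.6 and 12.5 TPM in dorsal and medial control cortex and 61.9 and 61.1 TPM in mutants, an interaction of 0.71 and an adjusted p of 0.385. Ccnd2 had an interaction of -0.40 (adjusted p = 0.227) and Cdk4 one of -0.07 (adjusted p = 0.684).

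Among progenitor genes, Sox1 and Hes1 passed, with opposite signs. Sox1 (chromosome 8, 12395295 to 12400126) is a SoxB transcription factor of neural progenitors. Its control levels were 38.1, 41.4, 37.5, 46.0 and 35.2 TPM dorsally and 30.0, 34.2, 37.3, 41.7 and 34.4 TPM medially. Its mutant levels were 72.5, 56.8, 83.6 and 57.9 TPM dorsally and 90.5, 92.8, 113 and 89.4 TPM medially. All mutants exceeded all controls in both regions, and the medial library was the lower of the pair in all 5 control numbers and the higher in all 4 mutant numbers. The interaction was 0.67 ± 0.0901 SE (adjusted p = 0.0226), from a dorsal effect of 0.74 and a medial effect of 1.42. The related Sox2 was near 0 (interaction 0.03, adjusted p = 0.938), with 220 and 324 TPM in dorsal and medial control cortex and 297 and 443 TPM in mutants.

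Hes1 (chromosome 16, 30064384 to 30067796) is a repressor induced by Notch that keeps progenitors undifferentiated. The controls had 57.1, 51.3, 47.5, 43.4 and 52.8 TPM dorsally and 100, 106, 90.5, 83.8 and 97.9 TPM medially. The mutants had 71.5, 57.1, 74.3 and 54.9 TPM dorsally and 92.0, 90.7, 100 and 80.6 TPM medially. Mutant and control libraries overlapped within each region, yet the regional differences did not overlap: 0.80 to 1.03 in controls and 0.36 to 0.66 in mutants. The interaction was -0.42 ± 0.0657 SE (adjusted p = 0.0436), with a dorsal effect of 0.34 (adjusted p = 0.0125) and a medial effect of -0.07 (adjusted p = 0.585). Of the 21 tested Notch pathway genes, Hes1 alone passed.

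Mfap4 (chromosome 11, 61485431 to 61488900) is annotated as a microfibril-associated protein and was grouped here with genes of intermediate progenitors. It stood at 33.4, 34.9, 33.4, 36.4 and 38.7 TPM in dorsal and 96.9, 98.3, 78.7, 67.5 and 79.9 TPM in medial control cortex. In mutants it stood at 32.9, 32.1, 44.2 and 34.3 TPM dorsally and 46.8, 44.8, 52.3 and 45.9 TPM medially. The dorsal libraries overlapped between genotypes, while all mutant medial libraries lay below all control medial ones. The unpaired dorsal library of control number 1, which is not in the fit, had 45.3 TPM, above all dorsal mutant libraries. The regional difference was 1.22 in controls and 0.40 in mutants (interaction -0.81 ± 0.125 SE, adjusted p = 0.0436). Eomes, the defining transcription factor of intermediate progenitors, had an interaction of -0.09 (adjusted p = 0.886), and the 20 tested genes of that group had a median interaction of -0.08, with only Mfap4 past the threshold.

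Cacng5 (chromosome 11, 107874605 to 107915055), an auxiliary subunit of AMPA-type glutamate receptors, had the lowest adjusted p of the 16 genes. Its control levels were 2.61, 3.05, 2.39, 1.63 and 3.39 TPM dorsally and 1.99, 2.38, 2.15, 1.15 and 2.72 TPM medially. Its mutant levels were 18.2, 11.4, 18.1 and 11.9 TPM dorsally and 30.2, 21.8, 26.1 and 18.8 TPM medially. All mutants exceeded all controls, and the sign of the regional difference was negative in each control number and positive in each mutant number. The mean differences were -0.23 and 0.68 (interaction 0.91 ± 0.0954 SE, adjusted p = 0.0129), with mutant effects of 2.13 and 3.04. Cacng5 remained past the threshold in 8 of the 9 fits that leave out 1 number, more than any other of the 16 genes.

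Prokr1 (chromosome 6, 87578591 to 87590743), a receptor for the secreted prokineticins, moved in opposite directions in the regions. Its control levels were 11.2, 12, 11.8, 12.5 and 10.6 TPM dorsally and 6.34, 5.74, 6.01, 6.57 and 6.23 TPM medially. Its mutant levels were 9.09, 7.90, 9.86 and 8.65 TPM dorsally and 9.13, 9.37, 9.24 and 7.81 TPM medially. Mutants were thus below the 5 paired control libraries dorsally and above all 5 control libraries medially. The unpaired dorsal library of control number 1, which is not in the fit, had 7.82 TPM, below all 4 dorsal mutant libraries. The regional difference was -0.81 in controls and 0.00 in mutants (interaction 0.81 ± 0.0944 SE, adjusted p = 0.0135), with effects of -0.35 dorsally and 0.46 medially that each passed their test. It stayed past the threshold in 7 of 9 fits without 1 number.

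Lypd1 (chromosome 1, 125867622 to 125913101), which encodes a membrane-anchored protein that modulates nicotinic receptors, had 2.15 to 3.33 TPM in dorsal and 1.38 to 1.80 TPM in medial control cortex. The unpaired dorsal library of control number 1, which is not in the fit, had 1.41 TPM, within the medial control range. In mutants Lypd1 had 4.11, 3.62, 4.64 and 3.92 TPM dorsally and 5.43, 7.62, 10.1 and 6.37 TPM medially. The regional difference was negative in all 5 control numbers (mean -0.55) and positive in all 4 mutant numbers (mean 0.70). The interaction was 1.25 ± 0.164 SE with an adjusted p of 0.0226, from effects of 0.39 dorsally and 1.63 medially. Spon1 (chromosome 7, 113765998 to 114043370), a secreted matrix protein of the floor plate, was low in controls, at 0.749 to 1.48 TPM dorsally and 0.656 to 1.45 TPM medially, with no regional difference detected (0.01). In mutants it had 2.44, 1.96, 3.29 and 2.79 TPM dorsally and 6.51, 4.06, 7.53 and 5.13 TPM medially. The difference of 0.90 in mutants gave an interaction of 0.88 ± 0.125 SE (adjusted p = 0.0247), and Spon1 was 1 of 2 genes whose regional difference was wider in mutants. At such low levels the pseudocount of 1 makes the log2 changes of Lypd1, Cacng5 and Spon1 smaller than those of TPM itself. Pcx (chromosome 19, 4510472 to 4621752), the mitochondrial pyruvate carboxylase, had the smallest positive interaction of the 16 genes, 0.30 (adjusted p = 0.0436), with 30.7 to 34.4 TPM dorsally and 27.0 to 29.7 TPM medially in controls. In mutants it had 44.8 to 54.1 TPM dorsally and 46.1 to 58.6 TPM medially.

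Alcam (chromosome 16, 52248996 to 52454074), a cell adhesion molecule of growing axons, was, beside Spon1, the other gene with a wider difference. The controls had 123, 128, 152, 142 and 120 TPM dorsally and 81.3, 82.4, 99.2, 97.2 and 95.6 TPM medially. The mutants had 41.3, 61.7, 34.5 and 76.6 TPM dorsally and 21.3, 23.0, 14.4 and 32.9 TPM medially. Every mutant library was below every control library of its region, and all 9 numbers had less Alcam medially. The regional difference was -0.54 in controls and -1.18 in mutants (interaction -0.64 ± 0.0899 SE, adjusted p = 0.0247), and the effects were -1.36 and -2.

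Pxylp1 (chromosome 9, 96823336 to 96892669), a phosphatase acting on the xylose of the linker of proteoglycan chains, had 32.1, 28.7, 32.0, 26.1 and 30.0 TPM dorsally and 42.5, 34.9, 41.2, 33.7 and 38.4 TPM medially in controls. In mutants it had 49.4, 54.5, 39.5 and 34.3 TPM dorsally and 37.8, 48.9, 30.4 and 32.7 TPM medially. The medial library was the higher of the pair in all 5 control numbers and the lower in all 4 mutant numbers. Mutants exceeded controls dorsally (effect 0.54, adjusted p = 0.00508), whereas the medial libraries overlapped (effect -0.04, adjusted p = 0.827). The interaction was -0.59 ± 0.0688 SE with an adjusted p of 0.0135, and it stayed past the threshold in 7 of 9 fits without 1 number. Adamts9 (chromosome 6, 92772699 to 92943492), a secreted metalloproteinase that cleaves proteoglycans, had 2.02 to 2.91 TPM dorsally and 8.32 to 10.1 TPM medially in controls. In mutants it had 1.12 to 2.29 TPM dorsally and 2.69 to 4.63 TPM medially, so only the medial libraries were fully separated by genotype. Its regional difference was 1.56 in controls and 0.80 in mutants (interaction -0.76, adjusted p = 0.0226).

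The remaining 3 genes shared a narrower medial excess. Kcnip3 (chromosome 2, 127456498 to 127522094), a calcium-binding protein that regulates potassium channels and transcription, had a regional difference of 0.76 in controls and 0.20 in mutants (interaction -0.56, adjusted p = 0.0436). Nt5dc2 (chromosome 14, 31131053 to 31139124), a member of the nucleotidase domain family, had 201 to 244 TPM dorsally and 355 to 415 TPM medially in controls, and 210 to 266 and 277 to 309 TPM in mutants. Its interaction was -0.49 (adjusted p = 0.0226). Gtf2f2 (chromosome 14, 75896937 to 76010865), a subunit of the general transcription factor TFIIF, had the smallest negative interaction of the 16 genes, -0.30 (adjusted p = 0.0221), from regional differences of 0.39 to 0.48 in control numbers and 0.08 to 0.18 in mutant numbers. For Nt5dc2 and Gtf2f2 the dorsal libraries of the genotypes overlapped and the medial ones did not.

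Hedgehog target genes were higher in mutants of both regions. Of 17 listed Hedgehog targets, 10 were tested and 7 fell below the filter. Some, such as Hhip and Fgf15, would not have passed it without the mutant libraries. The share higher in mutants is therefore partly set by the filter. Of the 10 tested, 8 were higher in mutant dorsal and 9 in mutant medial cortex, against 9.93% and 9.38% of all tested genes. The median effects of these targets were 2.56 and 3.03. Ccnd1 was the only one with a called interaction. Of the 10 interactions, 8 were positive (38.7% of all tested genes had a positive one). An unadjusted p under 0.05 was reached by 4, against 8.88% of all tested genes. No overlap between genotypes was seen in 4, against 3.45% of all tested genes. The median of the 10 interactions was 0.14, and it ran from 0.10 to 0.31 when 1 number was left out. Gli1 had an interaction of 0.28 ± 0.164 SE (adjusted p = 0.677), with mutant levels of 34.5, 31.9, 42.8 and 30.7 TPM dorsally and 24.3, 40.2, 48.1 and 36.3 TPM medially. Its medial level exceeded the dorsal one in mutant numbers 2 to 4 and not in number 1. The receptor Ptch1 had an interaction of 0.24 (adjusted p = 0.615) and the growth factor Fgf15 one of 0.00.

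Hhip, a membrane protein that binds and sequesters Hedgehog ligand, leaned the other way. It had 31.1, 33.4, 25.7 and 23.9 TPM in dorsal mutant cortex, 9.56 to 28.0 TPM in medial mutant cortex and at most 0.161 TPM in the 10 control libraries. Its regional differences were -1.60, -0.25, -0.79 and -0.48 in mutant numbers 1 to 4. The medial level was the lower in all 4 mutant numbers, most so in number 1. The interaction of -0.76 ± 0.226 SE did not pass (adjusted p = 0.276). Bcl2, a survival gene listed as a target, missed the threshold with 0.39 (adjusted p = 0.105), as did the ventral progenitor factor Olig2 with 0.46 (adjusted p = 0.811). Fgf15 and Bcl2 were named after their values were seen. Smo, the gene of which SmoM2 is an altered form, had -0.17 (adjusted p = 0.474), Gli2 0.00 and Gli3 0.18.

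Genes of the dividing cell leaned together towards a narrower medial excess, without any single call. G2/M genes are expressed in cells that prepare for or undergo mitosis. Of 53 such genes, 49 were higher medially in controls and 40 in mutants, where 26.1% and 17.3% of all tested genes were. Their median regional difference was 0.39 in controls and 0.18 in mutants, and 51 of 53 had a smaller regional difference in mutants in size (96.2%, against 56.2% of all tested genes). Limma called 0 of the 53 interactions, with 41 at an unadjusted p under 0.05 against 8.88% of all genes, and the median interaction was -0.20 against -0.02 over all tested genes. The interaction was negative in 51 of the 53 genes, where 8285 of the 13520 tested interactions were negative. The median mutant effect of these genes was 0.69 dorsally and 0.50 medially, against -0.09 and -0.11 over all tested genes. Of the 53, 48 were called higher in mutants dorsally and 46 medially, where 9.93% and 9.38% of all tested genes were.

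The numbers were not alike in this. The median regional difference of the G2/M genes was 0.34, 0.43, 0.42, 0.43 and 0.32 in control numbers 2 to 6. It was 0.04, 0.31, 0.10 and 0.28 in mutant numbers 1 to 4, all below the lowest control, with numbers 1 and 3 far below numbers 2 and 4. Hmmr, a spindle protein with the lowest p of the group, had differences of 0.42 to 0.53 in controls and 0.01, 0.30, 0.15 and 0.28 in mutants (interaction -0.30, adjusted p = 0.110). The median interaction of the group stayed between -0.25 and -0.15 under all alternatives. S-phase genes, which carry out DNA replication, had a median interaction of -0.11, negative in 44 of 49 (8285 of 13520 over all tested genes). Their regional medians were 0.31 and 0.17. Limma called 0, with 14 at an unadjusted p under 0.05, against 8.88% of all tested genes. That count rested on single numbers: it was 6 without mutant number 3, 7 without mutant number 1 and 29 without mutant number 2. Over all 13520 tested genes the counts in these fits were 1152, 1383 and 1091.

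**Figure D3:**
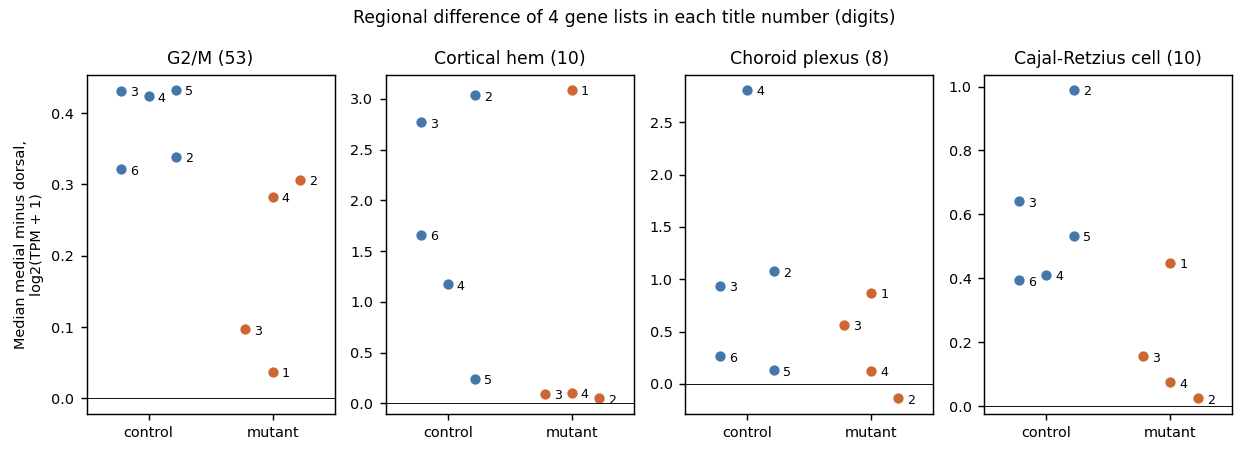
Median over list members of the regional difference (medial minus dorsal, log2(TPM + 1)) in each number, for 4 gene lists with the number of tested members in parentheses; points are single numbers, marked with their digit and spread sideways for legibility, and the vertical scales differ. Mutant numbers lie below all control numbers for the G2/M genes, while mutant number 1 reaches the top of the controls for the hem genes and control number 4 stands apart for the choroid plexus genes.

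The genes of the hem and its derivatives had the most negative list medians, on few and uneven libraries. Hem genes encode Wnt and BMP ligands and their partners. Of 10 tested, 8 were higher medially in controls (median difference 1.70) and 3 in mutants (0.89), where 26.1% and 17.3% of all tested genes were. Their interaction was negative in 9, as in 8285 of the 13520 tested genes, with a median of -0.86. Limma called 0 of them, and 0 reached an unadjusted p under 0.05. Wnt8b, a ligand of the hem and adjoining medial wall, stood at 22.8, 17.6, 1.88, 0.352 and 8.21 TPM in medial control cortex and at 23.7, 0.0765, 0.598 and 0.144 TPM in medial mutant cortex. Mutant number 1 was thus as high as the highest control, and the other 3 mutants were near 0, as was control number 5. The interaction of Wnt8b was -1.50 ± 1.17 SE (adjusted p = 0.795).

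Other hem genes, named after their values were seen, followed the same libraries. Wnt3a had 8.76, 7.77, 0.206, 0.0430 and 2.43 TPM in control medial and 7.83, 0.0468, 0.0318 and 0 TPM in mutant medial cortex. Rspo1, which strengthens Wnt signalling, had 19.7, 17.2, 1.86, 0.490 and 5.58 TPM in controls and 12.7, 0.2, 0.272 and 0.335 TPM in mutants. Both were high in control numbers 2 and 3 and in mutant number 1. Without mutant number 1 the median interaction of the hem list was -1.52. In that fit 8 of 10 members reached an unadjusted p under 0.05, against 1383 of the 13520 tested genes. With sex as a term the median was -0.17. How much of the hem a dissected piece held, and how much the hem cells expressed, cannot be told apart in these bulk libraries, where fewer cells of a type and less RNA per cell look alike.

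Choroid plexus genes had a median interaction of -0.76, negative in 8 of 8 tested, where 8285 of the 13520 tested genes had a negative one. Limma called 0 of the 8, with 1 at an unadjusted p under 0.05, against 8.88% of all tested genes. Ttr, the thyroid hormone carrier that marks this epithelium, named after its values were seen, had 934 TPM in medial control number 4 and 161 TPM in medial mutant number 3, against 0.584 to 47.2 TPM in the other medial libraries. Without control number 4 the list median was -0.23, and with sex as a term it was 0.15, so its direction turned. Cajal-Retzius cells are early neurons that arise partly at the hem and secrete Reelin. Of their 10 tested genes, 9 were higher medially in controls (median 0.57) and 2 in mutants (0.14), against the same 26.1% and 17.3% of all tested genes. The median interaction was -0.45. Limma called 0 of them, with 6 at an unadjusted p under 0.05, against 8.88% of all tested genes. The count of 6 ran from 3 to 7 when 1 number was left out, and that of all tested genes from 951 to 1383.

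Reln itself, named after its values were seen, had 91.8, 73.5, 67.3, 94.7 and 68.3 TPM in control medial and 40.9, 26.4, 44.7 and 57.4 TPM in mutant medial cortex, so the genotypes did not overlap there. Its regional difference was 0.32 to 0.97 in controls and 0.04 to 0.22 in mutants, with an interaction of -0.45 (adjusted p = 0.229). The median of the Cajal-Retzius list ran from -0.55 to -0.31 over the alternatives, including those without the numbers richest in hem or choroid plexus genes (-0.46 for both). The 22 transcription factors of the medial pallium were higher medially for 20 in controls (median 1.06) and 15 in mutants (median 0.73), where 26.1% and 17.3% of all tested genes were. Their median interaction was -0.25, with 0 called by limma and 4 at an unadjusted p under 0.05, against 8.88% of all tested genes. Without mutant number 1 the median was -0.46, with 11 at an unadjusted p under 0.05, against 1383 of the 13520 tested genes. Without mutant number 2 the median was -0.15. Without mutant number 4 the count was 2, against 1045 of the 13520. Emx2, which sets medial and caudal identity, had the same difference in both genotypes, 1.27, and an interaction of 0.00 with an SE of 0.126.

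**Figure D4:**
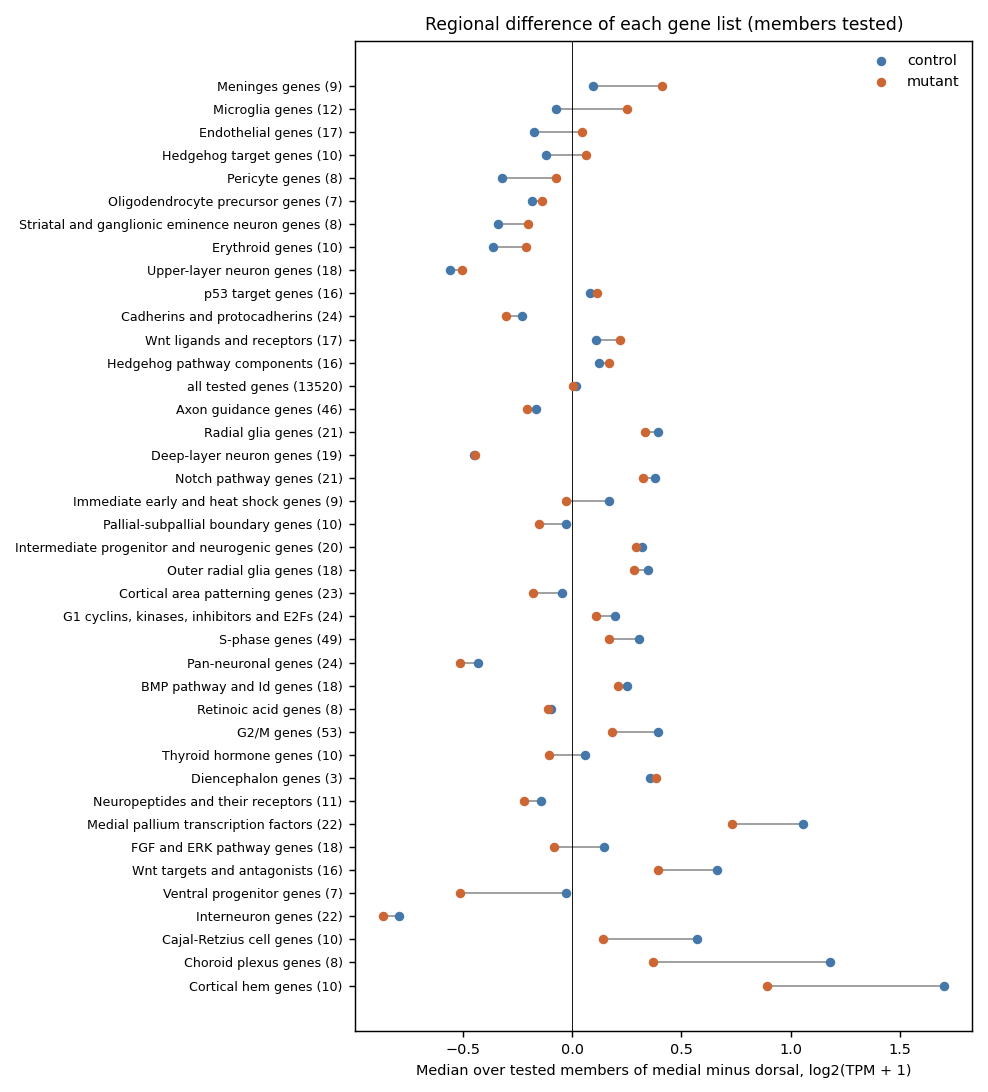
Median over tested members of the regional difference (medial minus dorsal, log2(TPM + 1)) in controls and mutants for 39 gene lists and all tested genes, ordered by median interaction, with the number of tested members in parentheses. The hem and choroid plexus lists have the widest gap, and lists of layer neurons have nearly the same median in both genotypes.

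Most tested genes of neurons were lower medially in both genotypes. Of 24 pan-neuronal genes, 20 were lower medially in controls and 20 in mutants, where 20.7% and 19.3% of all tested genes were. Their medians were -0.43 in controls and -0.52 in mutants. The median interaction was -0.12, negative in 18 of 24, where 8285 of the 13520 tested interactions were negative. Limma called 0, with 2 at an unadjusted p under 0.05, against 8.88% of all tested genes. Deep-layer genes had medians of -0.45 in controls and -0.44 in mutants, and upper-layer genes -0.56 and -0.50, with median interactions of -0.05 and 0.07 whose sign changed in 2 alternatives each. Limma called 0 of 19 and 0 of 18 interactions, with 1 and 3 at an unadjusted p under 0.05, against 8.88% of all tested genes. Interneuron genes mark cells that migrate in from the ventral forebrain. Their median regional difference was -0.88, -1.09, -0.59, -0.37 and -0.62 in control numbers 2 to 6. It was -0.87, -1.06, -0.65 and -0.66 in mutant numbers 1 to 4, all within the control range. The interaction was negative in 19 of 22, against the same 8285 of 13520 tested genes, with a median of -0.35. Limma called 0, with 6 at an unadjusted p under 0.05, against 8.88% of all tested genes. That count ran from 3 to 9 when 1 number was left out, and that of all tested genes from 951 to 1383. In dorsal cortex 6 of the 22 were lower in mutants and in medial cortex 16 were, where 25.4% and 29.8% of all tested genes were lower. Lhx6, a transcription factor of such interneurons, named after its values were seen, had 21.6 and 10.9 TPM in dorsal and medial control cortex and 14.6 and 4.15 TPM in mutants (interaction -0.79, adjusted p = 0.455).

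Radial glia genes had medians of 0.39 and 0.33 and a median interaction of -0.04, with 2 of 21 called, Sox1 and Hes1. Outer radial glia genes mark basal progenitors that are abundant in species with folded cortex. Of 18 tested, limma called 0 interactions, with 8 at an unadjusted p under 0.05 against 8.88% of all tested genes, and the members pulled apart. Moxd1, a monooxygenase-like protein, had 0.186 to 0.459 TPM in medial control and 2.47, 3.35, 8.65 and 3.71 TPM in medial mutant cortex, with an interaction of 1.25 that missed the threshold (adjusted p = 0.0942). F3 (tissue factor) had 0.73 (adjusted p = 0.107) and Hopx 0.45 (adjusted p = 0.828). Pdpn (podoplanin) had -0.37 (adjusted p = 0.0991) and the fatty acid binding protein Fabp7 had -0.42 (adjusted p = 0.120). F3, Pdpn and Fabp7 were named after their values were seen.

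Lists of microglia, vessels and meninges leaned the opposite way from the hem lists. Microglia genes had a positive interaction in 12 of 12 tested (median 0.34), where 38.7% of all tested genes had a positive one. Limma called 0, with 2 at an unadjusted p under 0.05, against 8.88% of all tested genes. The median interaction ran from 0.18 to 0.44 over the alternatives. The median regional difference of the list was 0.26, 0.02, -0.31, -0.26 and -0.17 in control numbers 2 to 6. It was 0.46, -0.16, 0.82 and -0.05 in mutant numbers 1 to 4, with numbers 2 and 4 within the control range. The summed level of microglia genes had medians of 120 and 98.2 TPM in dorsal and medial control cortex. In mutants these were 80.4 and 91.8 TPM, with the ranges of the medial groups overlapping. Endothelial genes had a median interaction of 0.19, positive in 15 of 17, where 38.7% of all tested genes had a positive one. Limma called 0 of them, with 1 at an unadjusted p under 0.05, against 8.88% of all tested genes. Without mutant number 3 the median was 0.07. Meninges genes had a median of 0.36 that rested on mutant number 3, without which it was -0.08.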

How the data were processed

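TPM values per gene symbol were deposited by the authors, 1 column per library and 47643 symbols; each column sums to 1e+06. Per the labels' protocols, libraries were stranded and made from total RNA (RNeasy Micro Kit, TruSeq), and the build is mm10, per the submitters' processing notes. Not given in the sources used here: the aligner, quantifier, annotation and strand setting.

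Tested genes had 1 TPM or more in at least 4 of 19 columns, on the scale log2(TPM + 1), which understates the change of low genes. Limma 3.58.1 (R 4.3.3, statmod 1.5.0; lmFit and eBayes with trend and robust settings) was fitted to the 9 within-number differences, with 1 mean per genotype. Mutant effects within a region came from a fit of group means over the 18 libraries. Adjusted p-values are Benjamini-Hochberg over all tested genes, threshold 0.05.

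Numbers were taken from the titles. Libraries of the same genotype and number deviated together from their group means in all 9 pairs (r from 0.549 to 0.795), 18 of 18 were closest to their own number, and 9 of 9 pairs were of 1 sex. The description fields number the control medial libraries differently; pairing by them gave r from -0.438 to 0.047 and put 2 of 5 pairs across sexes.

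The comparison, the 39 gene lists (695 members, 586 tested, 80 in several) and the rule for naming genes were chosen with earlier results of these data known. Named were all genes past the threshold (the rule allows 12 per direction, without overlap between genotypes and without predicted, small RNA, mitochondrial, ribosomal, pseudogene or 6 sex-linked names), the member with the lowest p of each list or up to 4 past it, and 18 fixed genes. Other genes were picked with their values in view, as stated beside them. Alternatives changed the pseudocount, filter, scaling, moderation, sex term, libraries and pairing. The script was tested on simulated data. Positions are from GENCODE M21, where 13056 of 13520 tested symbols matched 1 gene. Promoter sequences were not used here, and 1 gene is not reported here.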

Additional observations from a re-analysis of the deposited data

Results flagged for a closer look

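The mutant effect differed between regions in 16 genes by the test of the difference itself (limma, adjusted p under 0.05). The medial effect exceeded the dorsal one by 1.39 for Ccnd1, 1.25 for Lypd1, 0.91 for Cacng5, 0.88 for Spon1, 0.81 for Prokr1, 0.67 for Sox1 and 0.30 for Pcx on the log2 scale. The medial minus dorsal effect was -0.81 for Mfap4, -0.76 for Adamts9, -0.64 for Alcam, -0.59 for Pxylp1, -0.56 for Kcnip3, -0.51 for Cdkn1c, -0.49 for Nt5dc2, -0.42 for Hes1 and -0.30 for Gtf2f2.

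Single numbers stood apart from the rest of their group by Dixon's criterion at the 95% level in 4 of 68 groups of 4 or 5 differences; the 33 genes examined were the 16 above and the 18 fixed genes, Ccnd1 being in both, with the regional SD besides, and chance alone marks about 1 group in 20. The regional difference of Alcam was -0.322 in control number 6 against -0.63 to -0.544 in the other controls. That of Cacng5 was -0.104 in control number 4 against -0.291 to -0.238. That of Gtf2f2 was 0.48 in control number 3 against 0.388 to 0.399. That of Wnt8b was 4.59 in mutant number 1 against 0.0327 to 0.113 in the other mutants.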

How the results depend on the processing

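The number of genes with a called interaction, 16, was within 1.5 times with a filter of 5 TPM (16), median-ratio rescaling (13) and quantile normalization (15). The genes differed: 15, 9 and 11 of the original 16 were among them. The share with a higher medial effect moved from 43.8% to 76.9% and 66.7% under the 2 rescalings. The number called was 9 with a pseudocount of 0.1, 1 with no filter, 7 without trend and robust settings and 0 with sex as a term. Leaving out each number gave 0 to 13, and the 13 without control number 5 held 8 of the 16. With no replicate block the number called was 3 over 18 libraries and 1 over 19 libraries. With control libraries paired by the description number it was 0. Alternatives chosen after seeing the data gave 52 with the replicate block as a random effect (consensus correlation 0.515), 15 of the 16 among them, 0 without the 2 numbers richest in hem genes and 0 without the 2 richest in choroid plexus genes. At an unadjusted p under 0.05 the settings with 0 calls had 571 to 1068 genes (sex 724, control number 2 left out 951). The cause of these changes was not tested; fewer numbers leave fewer residual degrees of freedom. Regional calls in controls (6325) fell to 2372 with sex as a term and ran from 5409 to 6392 without a number. Those in mutants (4949) were 2512 and 2545 with no replicate block over 18 and 19 libraries, 3066 with the description pairing and 3346 to 5026 without a number. Mutant effects were 3596 to 4899 dorsally and 4415 to 5329 medially without a number, and 2651 dorsally without the numbers richest in choroid plexus genes. Under median-ratio rescaling and quantile normalization the dorsal effects split into 2024 higher and 1859 lower, and 1917 higher and 2087 lower, from 1342 and 3437; the medial ones into 2144 and 2224, and 2120 and 2236, from 1268 and 4030. The difference in regional SD was -0.138 with the description pairing (exact permutation p = 0.0159, the smallest allowed) and -0.0491 to -0.0121 without a number. Genes with interactions near 0 or with a large SE changed sign, none past the threshold. Gli2 was 0.011 and 0.069 under the 2 rescalings, 0.024 with no replicate block over 19 libraries and 0.078 with the description pairing. It was 0.13 and 0.059 without the numbers richest in hem and choroid plexus genes, and -0.12 to 0.12 without a number. Emx2 was -0.0026 under quantile normalization, -0.075 and -0.0078 without those numbers and -0.088 to 0.10 without a number. Fgf15 was -0.050 with a pseudocount of 0.1, -0.051 with the description pairing and -0.21 to 0.25 without a number. Ttr, at -1.25 with an SE of 1.74 in the main fit, was 0.63 with sex and -1.9 to 0.26 without a number. Prox1, at -0.18 with an SE of 0.34, was 0.27 with sex (both named after their values were seen). Eomes was -0.20 to 0.011 and Sox2 -0.0037 to 0.076 without a number. TPM hold no depth, so counting error limits the low genes to an unknown degree.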

Other observations

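Fgf17, a ligand of the rostral midline, named after its values were seen, stood at 10.7 TPM in the dorsal library of mutant number 3 and at 0.156 TPM in its medial partner, against 0.0524 to 0.116 TPM in the other 3 mutant dorsal libraries. In control medial cortex it stood at 9.94, 6.66, 0.281, 0.352 and 2.14 TPM in numbers 2 to 6. Otx2 stood at 2.07 TPM in dorsal mutant number 3, against 0.0995 to 0.234 TPM in the other mutant dorsal libraries. The interaction of Fgf17 was -2.22 (adjusted p = 0.534) and that of Otx2 was -1.76 (adjusted p = 0.485).

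Dio3, which inactivates thyroid hormone, was near 0 in controls (means of 0.0628 and 0.0117 TPM in dorsal and medial cortex) and higher in mutants, at 13.1 TPM dorsally and 5.30 TPM medially, with an interaction of -0.96 that did not pass (adjusted p = 0.227). The somatostatin receptor Sstr1 was lower in mutants in both regions, from 2.29 to 0.820 TPM dorsally and from 6.30 to 1.04 TPM medially, with an interaction of -0.97 (adjusted p = 0.132). The Wnt antagonist Frzb had 1.20 and 6.40 TPM in dorsal and medial control cortex and 0.764 and 2.38 TPM in mutants (interaction -0.82, adjusted p = 0.146).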
